A study of Homo sapiens with 94 samples.

Results

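The earliest sampling point after a single oral dose of the TEAD inhibitor K-975 was examined in 19 xenograft tumors, of the 94 tumors of the whole series. They were 14 tumors taken 1 h after K-975 (pooled over 30 mg/kg with 5 tumors, 100 mg/kg with 5 and 200 mg/kg with 4) and 5 tumors taken 1 h after vehicle. Tumors were picked by label, and the only readout in that rule was a minimum of 10000 genes at an FPKM of 1 or more. The comparison was set with earlier results of these data known. FPKM are fragments per transcript length, scaled to the library total. This minimum left out 1 library, replicate 1 of the 200 mg/kg group, which held 8531 such genes. All tumors were NCI-H226, a human pleural mesothelioma cell line that has lost NF2 by deletion, grown under the skin of SCID mice, 1 tumor per mouse. Vehicle and 200 mg/kg were given in 20 mL/kg, 30 and 100 mg/kg in 10 mL/kg. A group of 5 untreated tumors belonged to the same 1 h study. Mice of a group shared 1 cage label, and the effects of cage and of dosing cannot be told apart. Tumors of the same line taken at 3-6 h (30 with K-975 and 10 with vehicle) and at 24 h (13 and 4) served for comparison. The tumors of each time came from a separate study with its own vehicle tumors, so time and study cannot be told apart.

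TEAD1 to TEAD4 are DNA-binding factors that do little by themselves. They recruit the co-activators YAP1 and TAZ (encoded by WWTR1), which the Hippo kinases keep out of the nucleus. NF2 activates these kinases, so its loss leaves YAP1 free to bind TEAD, and K-975 attaches covalently in the lipid pocket of TEAD that is otherwise palmitoylated. Immediate early genes such as FOS and EGR1 are a separate class, which cells induce within minutes of a signal or stress from factors already present. An hour is long enough for their transcripts to move, and for short-lived transcripts to decline once transcription stops.

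The TEAD factors read a short motif, CATTCC on one strand and GGAATG on the other. To show what a direct target looks like, the 250 bases before the start of CCN2 and of ANKRD1, both textbook YAP1 targets, are given from RefSeq (GRCh38.p14, minus strand), at chr6:131951373-131951622 and chr10:90921088-90921337. Capitals mark the motif.
CCN2: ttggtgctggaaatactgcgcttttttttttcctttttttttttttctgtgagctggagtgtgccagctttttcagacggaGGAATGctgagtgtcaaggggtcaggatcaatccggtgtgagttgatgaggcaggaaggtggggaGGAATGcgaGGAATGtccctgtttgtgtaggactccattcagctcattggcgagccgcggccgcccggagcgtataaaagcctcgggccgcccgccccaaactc
ANKRD1: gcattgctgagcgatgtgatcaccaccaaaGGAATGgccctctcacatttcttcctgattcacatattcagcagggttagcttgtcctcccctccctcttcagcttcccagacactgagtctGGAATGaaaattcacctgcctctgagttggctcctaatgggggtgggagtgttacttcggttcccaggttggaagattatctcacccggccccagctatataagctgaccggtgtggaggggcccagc
CCN2 held 3 copies in this window and ANKRD1 held 2, on the same strand as GGAATG. A window of this length held at least 1 copy, on either strand, in 3248 of 27305 RefSeq promoters (11.9%), and 2 or more in 259 (0.949%). Of the 28 YAP1/TAZ-TEAD target genes listed here, 21 were matched by symbol, and 7 of them held the motif. Of 10406 matched genes that were tested, 990 held it, and their median log2 fold change at 1 h was 0.0004, against 0.0061 for the 9416 that did not.

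In the 24 libraries of the 1 h study that were kept, 11347 to 11505 genes reached an FPKM of 1. Pairs of these libraries had correlations of log2 values between 0.956 and 0.981, so none was treated as a repeat of another. Relative depth, estimated from rarely detected genes, was 1.13 ± 0.165 (SD, n = 14) with K-975 and 0.943 ± 0.0916 (SD, n = 5) with vehicle, a difference with an exact two-sided permutation p of 0.0275. Its part in the results was not tested. NF2, deleted in this line, reached at most 0.135 FPKM in the 19 tumors. The mesothelial markers of the line were all present. The 10 of them (MSLN, CALB2, WT1, UPK3B, KRT8, KRT18, KRT19, PDPN, THBD and LRRN4) summed to 2196 to 2989 FPKM with K-975 and 2327 to 2556 with vehicle, and the lowest of them was UPK3B, with a median of 1.27 FPKM in the K-975 tumors.

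At 1 h no gene distinguished the pooled K-975 tumors from vehicle at an adjusted p under 0.05. By limma on log2(FPKM + 1) with Benjamini-Hochberg adjustment, 0 of 13036 genes were called (0.0%), and the smallest adjusted p was 0.544. Leaving out vehicle tumor 1 called RPS10-NUDT3 (log2 fold change 0.56, adjusted p = 0.0427), and leaving out vehicle tumor 4 called MCAT (-0.91, adjusted p = 0.0224). An unadjusted p under 0.05 was reached by 506 genes (3.88%), 270 of them higher and 236 lower with K-975. Over all genes the log2 fold change had a median of 0.0062. The precision of this result can be read from the 95% intervals, which reached a median of 0.30 log2 units to either side of the estimate. For 8570 genes (65.7%) the interval lay within 0.5 log2 units of no change, and for 12623 (96.8%) within 1. Only 12 genes had an estimate beyond 1 log2 unit. Of the variance among the 19 tumors, 5.35% lay between the means of the K-975 and vehicle tumors. A random split of the tumors also puts a share between the means, so this value is not by itself an effect of K-975. Along the first principal component lay 12.3%, and the groups were not separated on it (two-sided exact permutation p = 0.782).

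None of the TEAD factors passed the test. TEAD1, the most abundant of the family here, ranged from 110 to 150 FPKM with a median of 121 in the 14 K-975 tumors, and stood at 121, 110, 104, 106 and 137 FPKM in the 5 vehicle tumors. The ranges overlapped almost fully. Its log2 fold change was 0.08 (95% interval -0.07 to 0.24, limma adjusted p = 1.0). TEAD4 ranged from 35.4 to 51.2 FPKM with a median of 42.4 after K-975 and was 42.3, 44.7, 46.2, 35.7 and 46.4 FPKM with vehicle, a log2 fold change of 0.00 (-0.19 to 0.20). TEAD2 and TEAD3, the members of lower FPKM, had log2 fold changes of -0.10 (-0.46 to 0.25) and 0.03 (-0.19 to 0.25).

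Of the co-activators, YAP1 leaned lower and WWTR1 higher, and neither passed the test. YAP1 ranged from 57.5 to 80.5 FPKM with a median of 70.7 after K-975, and was 70.6, 82.7, 73.1, 88.3 and 70.1 FPKM with vehicle. No K-975 tumor lay above the vehicle range and 6 of 14 lay below it. The log2 fold change of YAP1 was -0.13 (-0.27 to 0.01, unadjusted p = 0.0688, adjusted p = 1.0 by limma). Against untreated tumors the log2 fold change of YAP1 had the other sign, 0.05. WWTR1 had a log2 fold change of 0.26 (-0.08 to 0.60), and 5 of 14 K-975 tumors lay above the vehicle range. Of the list of TEAD factors, co-activators and Hippo kinases, 27 of 31 members were tested. None was called and none had an unadjusted p under 0.05. Their median log2 fold change was 0.0024, and 23 of the 27 intervals lay within 0.5. The smallest p belonged to AMOTL1, a scaffold that holds YAP1 in the cytoplasm (log2 fold change -0.44, limma adjusted p = 1.0), where 1 vehicle tumor stood at 3.40 FPKM and the next highest at 0.457.

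CCN1 and CCN2, secreted matricellular proteins and the usual readout of YAP1-TEAD activity, did not pass the test at 1 h. CCN1 (chr1:85580761-85583962, GRCh38, GENCODE 29) ranged from 143 to 320 FPKM with a median of 216 after K-975, and was 185, 231, 309, 217 and 166 FPKM with vehicle. The K-975 tumors spread over the whole vehicle range and beyond it on both sides. The log2 fold change of CCN1 was -0.02 (-0.33 to 0.29). CCN2 (chr6:131948176-131951373), whose promoter is printed above, ranged from 8.63 to 17.1 FPKM with a median of 11.97, and was 12.3, 10.9, 14.0, 10.9 and 9.53 FPKM with vehicle, a log2 fold change of 0.07 (-0.26 to 0.39). The doses were also read side by side. CCN2 had log2 fold changes of 0.09, -0.09 and 0.20 at the low, middle and high dose against the same vehicle tumors, in no order of dose. CCN1 had -0.07, -0.02 and 0.02, a span smaller than its interval at any dose, and no gene was called by the trend test described with the doses.

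**Figure D1:**
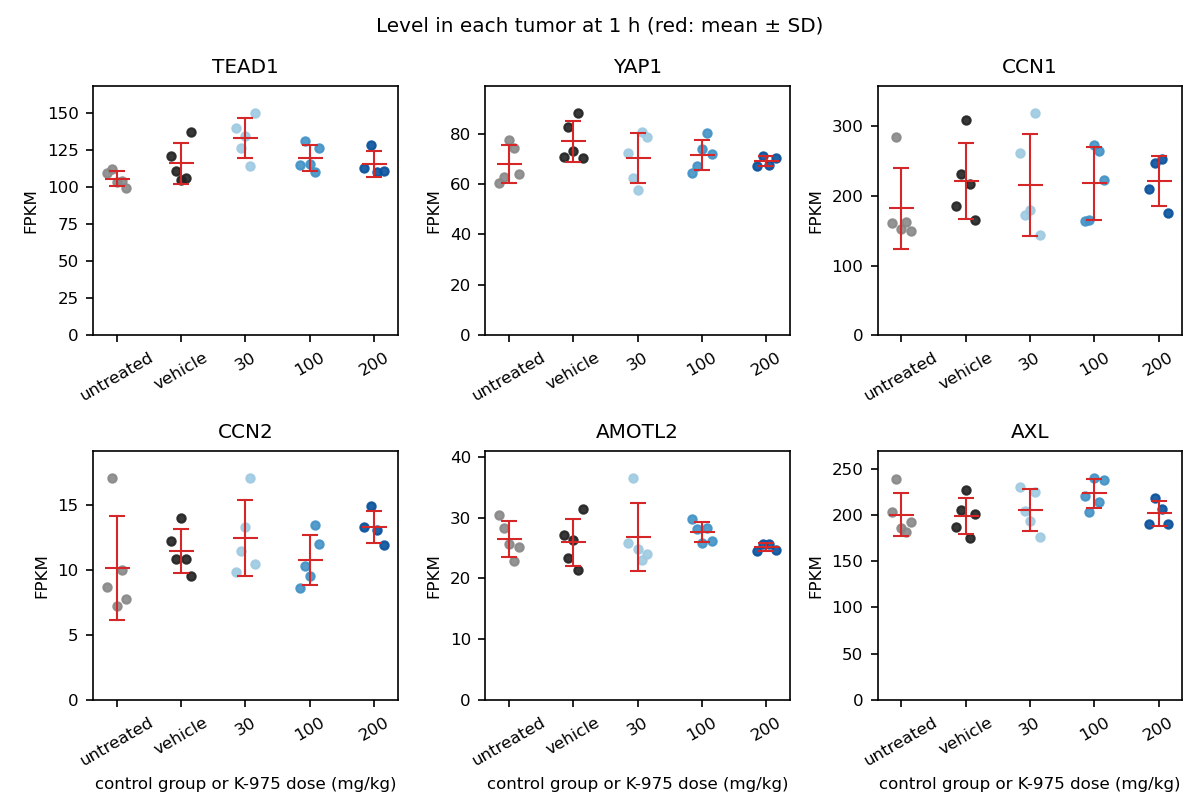
FPKM (vertical axes, from 0) of TEAD1, YAP1, CCN1, CCN2, AMOTL2 and AXL in each tumor of the 1 h study, by control group or K-975 dose. Points are tumors, red bars are the mean ± SD of each group (n = 5, and 4 at 200 mg/kg), and for every gene shown the K-975 tumors overlap the vehicle tumors.

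Other direct targets gave the same picture. AMOTL2, a feedback inhibitor of YAP1, ranged from 23.0 to 36.6 FPKM with a median of 25.8 after K-975, and was 27.1, 23.4, 26.4, 21.4 and 31.5 FPKM with vehicle (log2 fold change 0.03, -0.18 to 0.25). AXL, a receptor tyrosine kinase, ranged from 176 to 240 FPKM with a median of 210, and was 186, 205, 226, 175 and 201 FPKM with vehicle (log2 fold change 0.08, -0.10 to 0.26). Both sets of values overlapped. ANKRD1, a nuclear repeat protein of stretched muscle, was low at a median of 1.39 FPKM and had a log2 fold change of 0.04 (-0.33 to 0.42). CRIM1, a transmembrane protein that binds growth factors, had a log2 fold change of -0.03 (-0.14 to 0.08), and LATS2, a Hippo kinase that YAP1 induces, 0.04 (-0.25 to 0.33). All 28 genes of the target list, which was chosen with earlier results of these data known, passed the filter. None was called, 13 leaned higher and 15 lower, and the median log2 fold change was -0.01. An unadjusted p under 0.05 was reached by MYOF, a membrane repair protein, with a log2 fold change of -0.09 (adjusted p = 1.0 by limma). That is 1 of 28, against 3.88% of all genes.

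The 1 h level was set against later tumors of the same line. At 3-6 h, 18 genes were called (0.138%), 9 higher and 9 lower, and 4 of the lower ones were on the target list. Against the vehicle tumors of that study, CCN1 had a log2 fold change of -0.63 (limma adjusted p = 0.000788) and AMOTL2 -0.43 (adjusted p = 0.000788). CCN2 had -0.52 (adjusted p = 0.0187) and AJUBA, a scaffold that restrains the LATS kinases, -0.27 (adjusted p = 0.0102). At 1 h the 95% interval of each of these 4 genes excluded its 3-6 h estimate. The difference between the 3-6 h and 1 h effects itself was not called for any gene (limma, 0 of 13036, with 735 at an unadjusted p under 0.05). For CCN1 that difference was -0.60 (adjusted p = 0.695).

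At 24 h, 534 genes were called (4.1%), 308 higher (2.36%) and 226 lower (1.73%), among them 9 of the 28 targets, all lower. These were CCN1, CCN2, AXL, F3, IGFBP3, THBS1, NPPB, KRT34 and FSTL1. Their 24 h log2 fold changes ran from -1.82 to -0.43, and their 1 h log2 fold changes from -0.19 to 0.12. At 1 h 4 of the 9 leaned lower, and at 3-6 h all 9 did. For each of the 9 the 1 h interval excluded the 24 h estimate, but this leaves out the error of the 24 h estimate. The 9 were also picked for passing at 24 h, and the list of 28 was chosen with earlier results of these data known. Their share of the list is therefore a description only. The test of the difference between the 2 times, given below, called 1 of the 28 targets, CCN2. KRT34, a hair keratin, was 12.05 to 37.4 FPKM with a median of 17.6 at 1 h after K-975 and 9.56, 22.9, 29.3, 23.0 and 18.3 FPKM with vehicle. Its log2 fold change was -0.01 at 1 h, -0.31 at 3-6 h and -1.82 at 24 h. NPPB, the precursor of a natriuretic peptide, had 0.03, -0.37 and -1.57 at the same times.

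**Figure D2:**
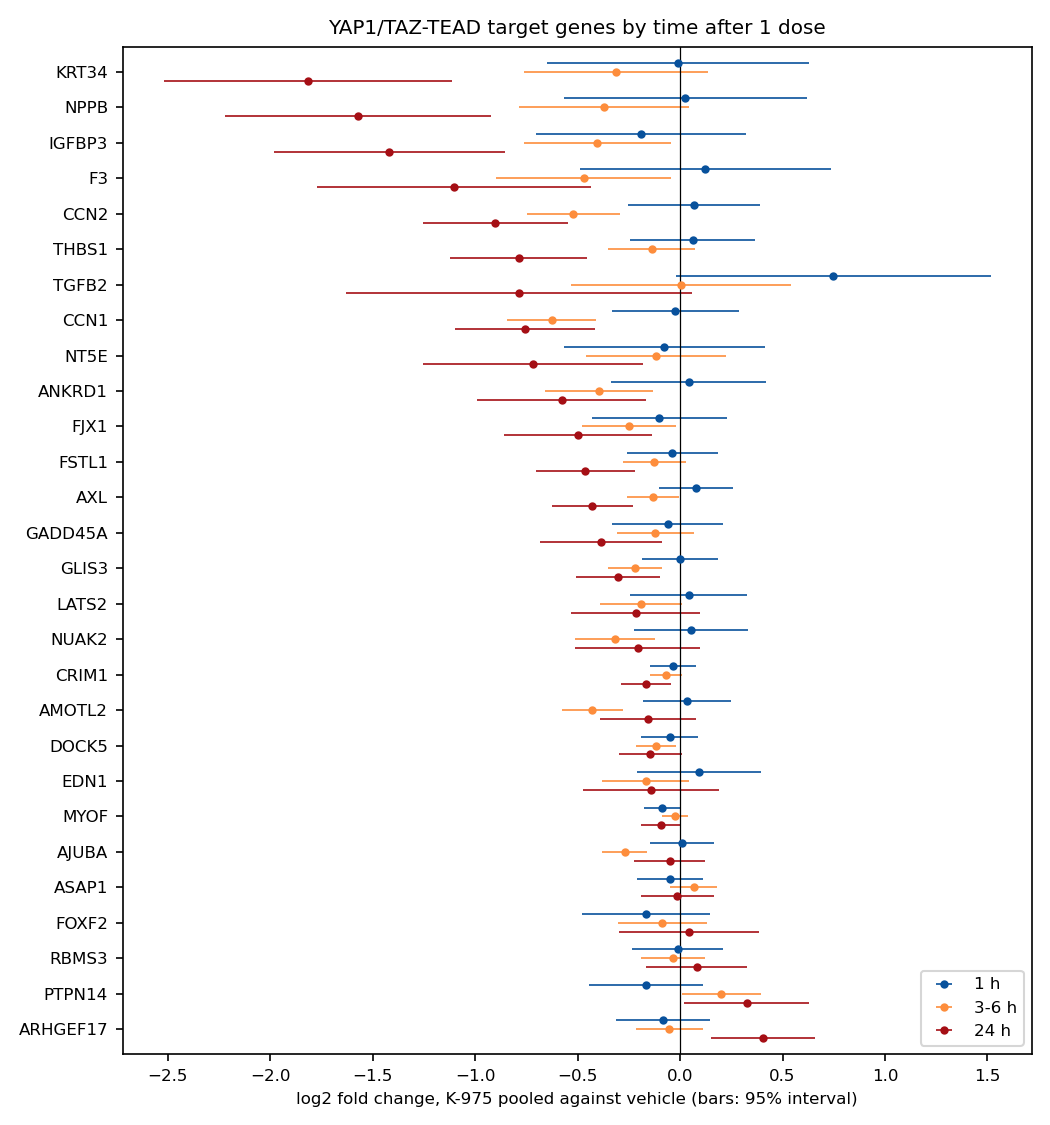
Log2 fold change of K-975 pooled over doses against vehicle (horizontal axis) for the 28 YAP1/TAZ-TEAD target genes, ordered by the 24 h value. Points are limma estimates at 1 h, 3-6 h and 24 h, bars are 95% intervals, and the 1 h points of the 9 genes called at 24 h lie between -0.19 and 0.12.

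A test of the difference between the 24 h and 1 h effects called 42 genes (0.322%), 24 of them higher at 24 h than at 1 h and 18 lower, and all 42 were also called at 24 h. CCN2 was among them, with a difference of -0.97 (SE 0.24, limma adjusted p = 0.0442), and CCN1 was not (-0.73, adjusted p = 0.117). The CCN2 difference stayed between -1.05 and -0.88 in 36 fits that each left out 1 tumor, while its adjusted p ran from 0.0218 to 0.0979 and passed the threshold in 15 of them. The genes with the smallest p in this test, named after their values were seen, were ACAT2, an enzyme of sterol precursor synthesis (difference -1.21), WWC1, a Hippo scaffold also called KIBRA (-0.47), CARNS1, which makes carnosine (1.48), PIGZ, a mannosyltransferase of lipid anchors (0.80), SSC5D (0.85), ACTN1, an actin crosslinker (-0.46), SKP2, a ubiquitin ligase subunit of the cell cycle (-0.82), and PPME1, a methylesterase of protein phosphatase 2A (-1.23). PPME1 was already called at 3-6 h (log2 fold change -0.54, adjusted p = 0.0185) and stood at 0.16 (-0.17 to 0.49) at 1 h. The 24 h and 1 h tumors were in separate studies, each with its own vehicle tumors, so time and study cannot be told apart. The count of 42 ranged from 12 without vehicle tumor 1 of 1 h to 139 without the 200 mg/kg tumor 2 of 24 h.

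The genes of the later response had medians near no change at 1 h, and those called lower at 24 h leaned slightly higher at 1 h. The 308 genes called higher at 24 h had a median log2 fold change of 0.57 there and of 0.0024 at 1 h, and 158 of them (51.3%) leaned higher at 1 h. The 226 genes called lower had a median of -0.49 at 24 h and of 0.02 at 1 h, and 92 of them (40.7%) leaned lower at 1 h. Their 1 h medians were 0.03, 0.04 and 0.02 at 30, 100 and 200 mg/kg. Of all 13036 genes tested, 6263 leaned lower at 1 h. At 3-6 h, 226 of the 308 (73.4%) and 164 of the 226 (72.6%) leaned in the direction of 24 h. An unadjusted p under 0.05 at 1 h in the direction of 24 h was reached by 4 of the 308 and 1 of the 226. The 1 h interval excluded the 24 h estimate for 305 and 224 genes, leaving out the error of the 24 h estimate. The test of the difference between the 24 h and 1 h effects called 24 of the 308 and 18 of the 226. The 24 h estimates were chosen for passing a threshold, which tends to make them large.

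**Figure D3:**
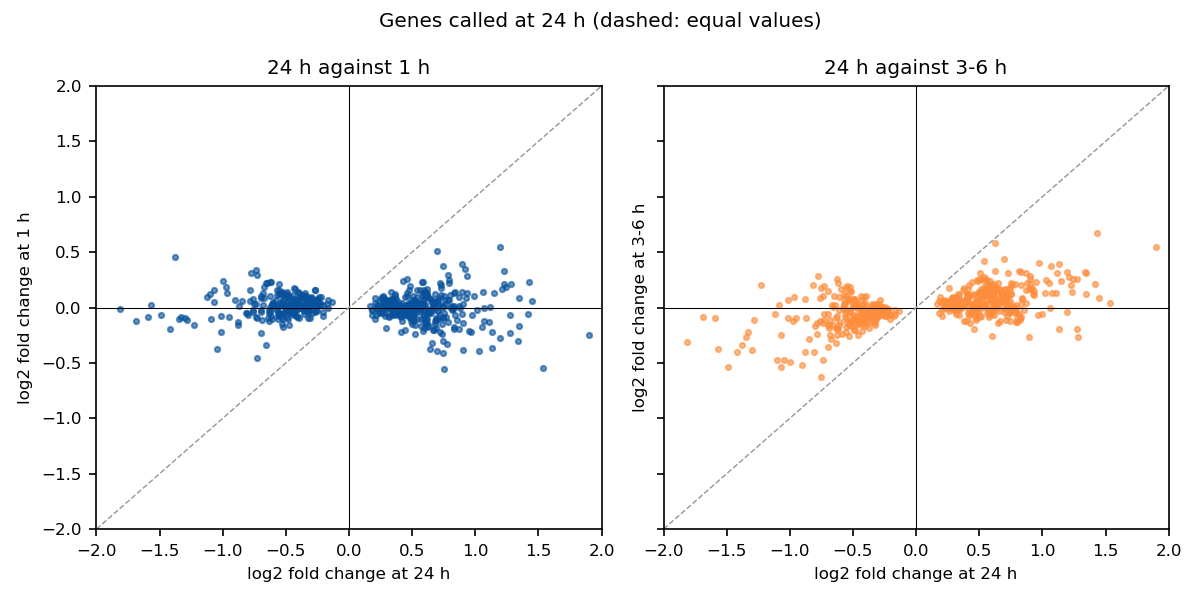
Log2 fold change at 1 h (left) and at 3-6 h (right) against that at 24 h, K-975 pooled against vehicle, for the 534 genes called at 24 h. Each point is a gene and the dashed line marks equal values. The 1 h medians are near 0 (0.0024 for the higher and 0.02 for the lower genes). At 3-6 h 73.4% of the higher and 72.6% of the lower genes share the sign of 24 h.

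Among the 18 genes called at 3-6 h, LAMTOR1 leaned the same way at 1 h with a small p. LAMTOR1, a subunit of the lysosomal Ragulator complex that recruits mTORC1, was 14.8 to 24.9 FPKM with a median of 20.2 after K-975, and 18.3, 16.7, 13.6, 15.9 and 16.8 FPKM with vehicle. Of the 14 K-975 tumors 12 lay above all vehicle tumors. The log2 fold change of LAMTOR1 was 0.32 at 1 h (0.11 to 0.53, unadjusted p = 0.00313, adjusted p = 1.0), 0.34 at 3-6 h (adjusted p = 0.0187) and -0.05 at 24 h. Against untreated tumors its 1 h log2 fold change was 0.05. LAMTOR1 was singled out after its values were seen.

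No immediate early gene passed the test. FOS, the AP-1 subunit induced fastest by growth signals, ranged from 2.01 to 7.07 FPKM with a median of 4.94 after K-975, and was 3.26, 3.44, 4.53, 3.55 and 7.14 FPKM with vehicle. No K-975 tumor exceeded the highest vehicle tumor. The log2 fold change of FOS was 0.19 (-0.38 to 0.75). EGR1, a zinc finger factor of the same class, ranged from 1.51 to 13.1 FPKM with a median of 4.14, and was 3.09, 4.91, 4.60, 6.24 and 5.14 FPKM with vehicle. Its K-975 tumors lay on both sides of the vehicle range, 4 above and 3 below, and the log2 fold change was -0.04 (-0.56 to 0.48).

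The other members of this class were similar. JUN, the partner of FOS, had a log2 fold change of -0.07 (-0.43 to 0.30), FOSB 0.15 (-0.48 to 0.77), and NR4A1, an orphan nuclear receptor, 0.07 (-0.45 to 0.60). ATF3, a stress-induced repressor, had 0.25 (-0.22 to 0.72), IER2 -0.01 (-0.23 to 0.21), IER3 0.14 (-0.46 to 0.75) and MYC 0.09 (-0.08 to 0.27). DUSP1, a phosphatase that turns off MAP kinases, had 0.15 (-0.16 to 0.45). Of 33 listed genes 31 were tested, 0 were called and 0 had an unadjusted p under 0.05. Their median log2 fold change was 0.03. For 16 of the 31 the interval lay within 0.5, and for all 31 within 1, so a change of 1 log2 unit was outside every interval on the log2(FPKM + 1) scale, which understates the change of genes near 1 FPKM. KLF2, a factor induced by shear and by MEK5 signals, had the smallest p (0.0629), with 10 of 14 K-975 tumors above all vehicle tumors and a log2 fold change of 0.27 (-0.02 to 0.56). Untreated tumors stood at 24.4, 32.7, 19.8, 21.8 and 24.9 FPKM of KLF2, and the log2 fold change against them was -0.05 (-0.34 to 0.24).

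**Figure D4:**
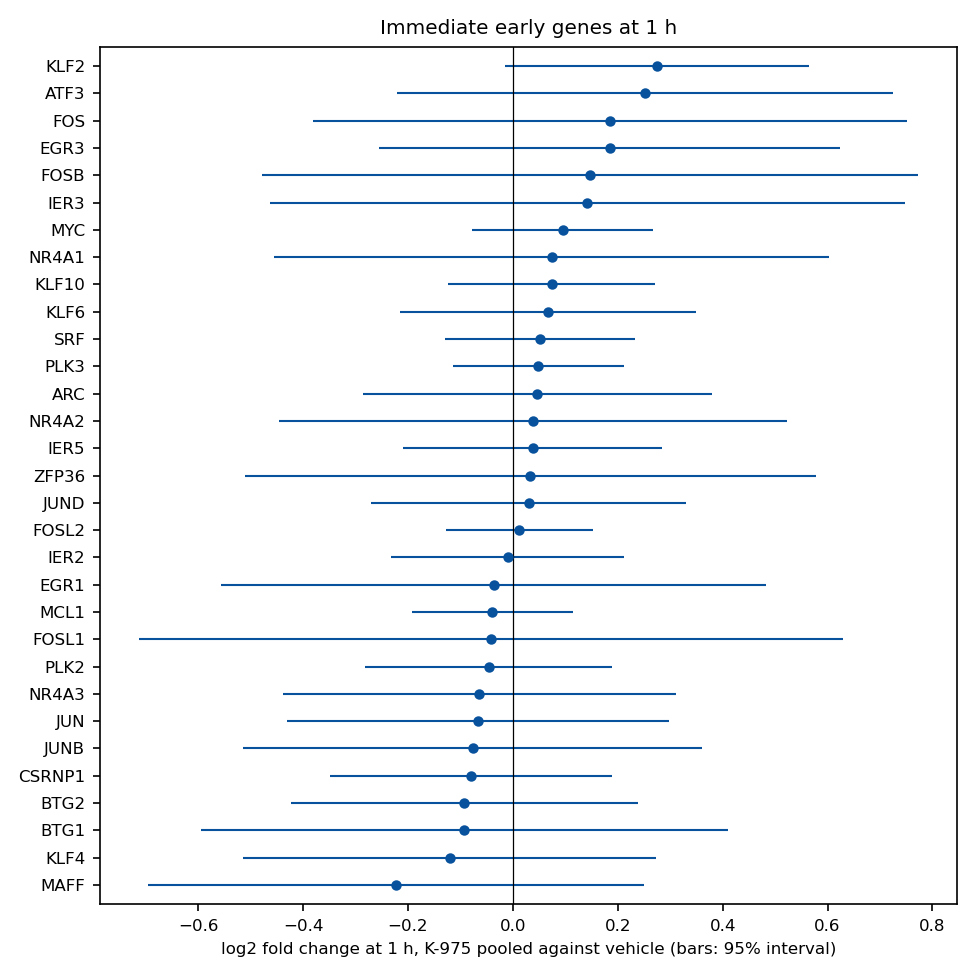
Log2 fold change at 1 h of K-975 pooled against vehicle (horizontal axis) for the 31 immediate early genes tested, ordered by value. Points are limma estimates from 14 and 5 tumors and bars are 95% intervals; every interval includes 0 and lies within 1.

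Lists of the programs that a reactive drug, its carrier or handling might set off were read in the same way, and none held a called gene. All gene lists here were chosen with earlier results of these data known. The MAPK feedback list, 19 of 21 tested, had a median log2 fold change of 0.08. An unadjusted p under 0.05, reached by 3.88% of all genes, was found for 1 member. This was DUSP6, the ERK phosphatase (log2 fold change -0.59, -1.17 to -0.01). The NRF2 list of the electrophile response had 15 of 18 tested, a median of 0.04 and 13 intervals within 0.5. Its smallest p was that of TXN, thioredoxin (0.17, -0.01 to 0.34). The 13 heat shock chaperones tested had a median of -0.01, and 12 of their intervals lay within 0.5. CHORDC1, an HSP90 co-chaperone, had the smallest p among them (-0.28, -0.57 to 0.01).

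The list of the integrated stress and unfolded protein response, 17 genes tested, had a median log2 fold change of -0.02, with 7 higher and 10 lower. Within it ATF4 had a log2 fold change of -0.14 (-0.25 to -0.03, adjusted p = 1.0 by limma). Its unadjusted p was under 0.05, which is 1 of 17 against 3.88% of all genes. ATF4 is the transcription factor at the centre of that response, and it ranged from 77.0 to 95.2 FPKM with a median of 83.5 after K-975 against 94.7, 91.2, 82.7, 98.9 and 96.4 FPKM with vehicle. Against untreated tumors the log2 fold change of ATF4 was -0.02. The 7 tested of 10 metallothionein genes and the zinc exporter SLC30A1 had a median of -0.10, led by MT1E (-0.18, -0.47 to 0.11). The 16 p53 targets had a median of 0.05. Neither list had a member with an unadjusted p under 0.05.

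Inflammatory genes were measured less precisely than most. The list of NF-kB feedback genes, cytokines and chemokines, 21 of 22 tested, had a median log2 fold change of -0.06 and a median 95% margin of 0.69, against 0.30 for all genes. Their median SD between tumors of a group was 0.58 on the log2 scale, against 0.27 for all genes. Only 12 of the 21 intervals lay within 1, and the other 9 intervals included a change of 1 log2 unit. Their summed level spread from 1370 to 5242 FPKM in the K-975 tumors and from 1185 to 5618 FPKM in the vehicle tumors. LIF, a cytokine of the IL-6 family, had the smallest p (0.20, -0.19 to 0.59). The 15 interferon response genes had a median of -0.11, 13 of them leaning lower. From the low to the high dose their medians were -0.30, 0.10 and -0.18, so the sign turned at 100 mg/kg. IRF7, a regulator of interferon genes, had a log2 fold change of -0.30 (-0.57 to -0.04, adjusted p = 1.0 by limma). The same 15 genes had a median of 0.42 in vehicle against untreated tumors and 0.25 in K-975 against untreated tumors, with no gene called in either.

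Systemic signals of dosing and handling also gave no call. Glucocorticoid response genes, 11 of 14 tested, had a median of -0.02, and SGK1, a kinase under direct control of the receptor, had the smallest p (0.20, -0.20 to 0.60). The 18 circadian clock genes had a median of 0.02, led by the repressor CRY2 (-0.33, -0.73 to 0.06). The 12 genes of the glucose and insulin response had a median of -0.09, led by SESN1 (-0.35, -0.76 to 0.06), which is also on the p53 list. In hypoxia and glycolysis 15 of 17 genes leaned lower, with a median of -0.08. The list's medians were -0.16, -0.25 and 0.07 from the low to the high dose, so the lean was not seen in the median at 200 mg/kg. The cause was not tested. At 24 h 6 of the 17 were called lower, where 1.73% of all genes were. CA9, a carbonic anhydrase of hypoxic tumor regions, led that list (-0.34, -0.81 to 0.13). The 15 targets of TGF-beta and BMP had a median of -0.03, led by ID1 (0.44, -0.07 to 0.95).

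Sterol synthesis and the cell cycle, which held called genes at 24 h, had none at 1 h. The 16 sterol and fatty acid genes had a median of 0.02 at 1 h, with 15 intervals within 0.5, against -0.32 and 8 genes called lower at 24 h, where 1.73% of all genes were. Of 16 genes of G1/S and DNA replication 12 leaned higher, with a median of 0.13 against 0.0062 for all genes. From the low to the high dose their medians were 0.13, 0.21 and 0.03. PCNA, the sliding clamp of DNA polymerase, had a log2 fold change of 0.31 (0.05 to 0.58, adjusted p = 1.0 by limma), and 7 of 14 K-975 tumors lay above all vehicle tumors. The 15 genes of G2/M and mitosis had a median of 0.08, led by CDK1 (0.18, -0.10 to 0.45). The 15 SRF and actin genes had a median of 0.03, led by ACTA2 (0.20, -0.08 to 0.49).

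Enzymes that add or remove palmitate were listed because K-975 occupies the site that palmitate takes in TEAD. The 23 of them had a median log2 fold change of 0.06, and 18 intervals lay within 0.5. ZDHHC16, a palmitoyltransferase, had 0.21 (0.01 to 0.40, adjusted p = 1.0 by limma), and 10 of 14 K-975 tumors were above all vehicle tumors. ATF4, IRF7, PCNA and ZDHHC16 were the only members of their lists with an unadjusted p under 0.05. Those lists had 17, 15, 16 and 23 genes tested, and 3.88% of all genes reached such a p.

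No gene of the host marker lists was called. The host is a mouse and the values are of human genes, so the sums below cannot be read as host cell content. Mean FPKM was below 1 for 5 of 8 endothelial, 4 of 8 fibroblast and 6 of 9 macrophage and neutrophil markers. It was also below 1 for 8 of 8 skeletal muscle, 5 of 6 adipocyte, 5 of 6 blood and 3 of 6 keratinocyte markers. In bulk tumors, fewer cells of a type and less RNA per cell cannot be told apart. The 8 endothelial markers summed to 34.2 to 89.0 FPKM with K-975 and 35.9 to 95.5 with vehicle, the 8 fibroblast markers to 899 to 1268 and 856 to 1440, and the 9 macrophage and neutrophil markers to 104 to 206 and 125 to 195. Blood markers summed to at most 4.19 and 3.24 FPKM, skeletal muscle markers to 4.34 and 2.45, and adipocyte markers, nearly all from CFD, to 12.7 and 9.14. The 6 keratinocyte markers summed to 643 to 1542 and 724 to 1233. The genes of smallest p were ESAM (-0.36, -0.72 to 0.01), PDGFRB (-0.13, -0.35 to 0.08), PTPRC (-0.45, -1.01 to 0.10), HBA2 (-0.65, -1.52 to 0.22), MYL11 (-0.17, -0.92 to 0.58), CFD (0.23, -0.15 to 0.60) and KRT10 (0.35, -0.16 to 0.86).

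None of the genes with the smallest p in the pooled comparison passed the adjusted threshold. The 8 of smallest p that leaned higher had log2 fold changes of 0.33 to 0.79, and the 8 that leaned lower -0.69 to -0.19, with adjusted p from 0.544 to 1.0 by limma. Among the higher ones were AP3M2, an adaptor of vesicle traffic (0.79, 0.34 to 1.25), ERCC5, an endonuclease of nucleotide excision repair (0.64, 0.29 to 0.99), ZNF37A (0.58), SLC25A51, the mitochondrial NAD carrier (0.45), RABGGTA, which attaches lipid anchors to Rab proteins (0.43), and FDXR, ferredoxin reductase (0.33). NLGN4Y (0.36), which has a close X-linked copy, and the readthrough gene RPS10-NUDT3 (0.41), whose reads can be shared with its component genes, are uncertain.

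Those leaning lower included MCAT, an acyltransferase of mitochondrial fatty acid synthesis (-0.69, -1.02 to -0.35), MDC1, a scaffold at DNA breaks (-0.66, -0.99 to -0.34), GNPDA2 (-0.61), WDR48, a cofactor of deubiquitinases (-0.53), WDR26, a subunit of the CTLH ubiquitin ligase (-0.36), PCNX1 (-0.35), ZC3H11A, an mRNA export factor (-0.19), and PJA2, a ubiquitin ligase (-0.19). MDC1 was 4.64 to 8.76 FPKM with a median of 6.88 after K-975 and 8.58, 9.83, 25.8, 9.17 and 10.2 FPKM with vehicle, 1 vehicle tumor standing far above the others. ZC3H11A was 35.6 to 48.1 FPKM with a median of 41.6 and 46.8, 46.8, 47.7, 47.8 and 49.4 FPKM with vehicle, and 12 of 14 K-975 tumors lay below all vehicle tumors.

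The same genes were set against the untreated tumors. They had been chosen for their difference from the 5 vehicle tumors, so a smaller difference from another group follows in part from that choice and is given as a description. Set against the 5 untreated tumors, the 8 higher genes had a median log2 fold change of 0.13 in place of 0.44, and the 8 lower genes -0.01 in place of -0.44. Both comparisons share the K-975 tumors. An unadjusted p under 0.05 against untreated was reached by 1 of the 8 higher and 0 of the 8 lower genes. AP3M2 was 5.92 ± 2.76 FPKM (SD, n = 5) with vehicle, 10.4 ± 3.12 (SD, n = 14) with K-975 and 9.18 ± 3.18 (SD, n = 5) untreated. ZC3H11A was 47.7 ± 1.04, 41.7 ± 3.66 and 41.6 ± 3.43 FPKM in the same order. Vehicle against untreated tumors called 0 of 13036 genes by limma, with 616 at an unadjusted p under 0.05, and K-975 against untreated called 0, with 782. In the 14 K-975 tumors against the mean of both control groups 0 were called, with 644.

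Complete separation of the 14 and 5 tumors was seen in 4 of 13036 genes (0.0307%). A random split of the tumors separates a gene in a given direction with a probability of 8.6e-05. A few of 13036 genes can therefore separate with no effect of K-975. TMPO, a lamin-binding protein of the nuclear envelope (chr12:98515512-98550379), was 36.8 to 44.4 FPKM with a median of 41.2 after K-975, and 35.2, 35.0, 36.3, 32.3 and 32.5 FPKM with vehicle. RRM1, the large subunit of ribonucleotide reductase (chr11:4094799-4138876), was 44.0 to 72.0 FPKM with a median of 49.5, and 31.2, 43.1, 41.7, 38.7 and 41.9 FPKM with vehicle. Every K-975 tumor was above every vehicle tumor for both genes. GRIN2C, a glutamate receptor subunit, was also higher throughout (0.853 to 1.54 against 0.247 to 0.768 FPKM), and FAM24B was lower throughout (0.518 to 3.87 against 3.97 to 5.75 FPKM). Their log2 fold changes were 0.24 (0.05 to 0.44), 0.35 (0.13 to 0.57), 0.41 (0.10 to 0.73) and -0.81 (-1.47 to -0.15), and each had an adjusted p of 1.0. At 3-6 h the values were 0.01 for TMPO, -0.08 for RRM1, 0.09 for GRIN2C and 0.01 for FAM24B. Against untreated tumors they were 0.10, 0.25, 0.39 and 0.32, so FAM24B had the other sign, with untreated values of 4.19, 0.678, 1.63, 4.55 and 0 FPKM. These genes were chosen by their values.

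**Figure D5:**
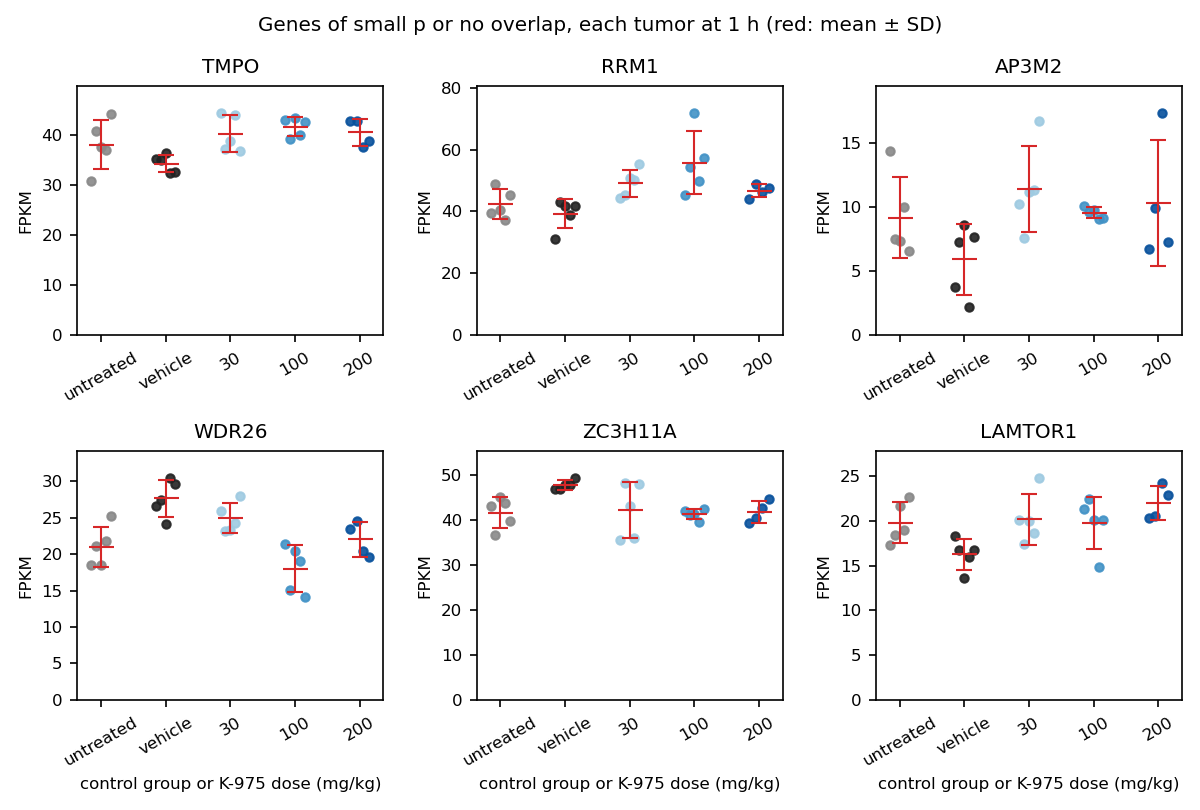
FPKM (vertical axes, from 0) of TMPO, RRM1, AP3M2, WDR26, ZC3H11A and LAMTOR1 in each tumor of the 1 h study, by control group or K-975 dose. Points are tumors and red bars the mean ± SD of each group; for AP3M2, WDR26 and ZC3H11A the untreated mean (9.18, 21.0 and 41.6 FPKM) is nearer to the K-975 tumors than to vehicle.

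When each dose was tested by itself, 1 gene was called at 1 h. At 100 mg/kg this was WDR26 (chr1:224385143-224434299), 1 of 13036 genes (0.00767%), with a log2 fold change of -0.61 (SE 0.11, limma adjusted p = 0.0150). WDR26 was 21.4, 15.1, 20.4, 19.1 and 14.1 FPKM at 100 mg/kg and 26.6, 27.5, 24.1, 30.5 and 29.7 FPKM with vehicle. At 30 mg/kg it was 26.0, 23.2, 23.3, 24.3 and 28.0 FPKM and at 200 mg/kg 23.5, 24.6, 20.4 and 19.6 FPKM, with log2 fold changes of -0.14 and -0.32, so the middle dose was lowest. Untreated tumors stood at 21.0 ± 2.76 FPKM (SD, n = 5), close to the 21.6 ± 3.89 of the 14 K-975 tumors. The call was lost with the 1 h study fitted alone, with all 94 libraries, and in 5 of 10 fits that left out 1 tumor (100 mg/kg tumor 2 or 5, or vehicle tumor 2, 4 or 5), where the adjusted p rose to at most 0.246.

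At 30 mg/kg 0 genes were called (571 at an unadjusted p under 0.05) and at 200 mg/kg 0 (435). A linear trend over vehicle and the 3 doses called 0 genes (439), and a moderated F test of any difference among the 4 groups called 0 (507), all by limma. The target list had median log2 fold changes of 0.01, -0.03 and -0.04 from the low to the high dose. The immediate early list had -0.08, 0.02 and 0.06. The 3 doses share the vehicle tumors, so these values are not independent.

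A rank score of YAP1-TEAD output, called deR, was also computed. Effector genes were ranked by FPKM within a tumor, ranks were divided by the number of genes, and the mean for negative effectors was subtracted from that for positive effectors. The 2 effector lists are the authors' own, derived from public data sets other than these tumors. The score ranged from 0.195 to 0.243 with a median of 0.220 in the 14 K-975 tumors and from 0.207 to 0.237 in the 5 vehicle tumors. The difference was 0.00553 (two-sided exact permutation p = 0.448 over 11628 splits). At 30, 100 and 200 mg/kg the means were 0.222, 0.227 and 0.216, against 0.216 with vehicle and 0.211 untreated. At 24 h the score of the 13 K-975 tumors minus that of the 4 vehicle tumors was -0.0373, and the difference of the 24 h and 1 h effects was -0.0428 (two-sided permutation test within studies, 100000 resamples, p = 0.00543). Of the positive effectors 240 were tested, with a median log2 fold change of 0.03 at 1 h and -0.19 at 24 h, where 34 were called lower and 0 higher, against 1.73% and 2.36% of all genes. Of the negative effectors 195 were tested, with medians of -0.02 and 0.11, and at 24 h 11 were called higher and 1 lower. None of either list was called at 1 h.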

How the data were processed

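RNA of NCI-H226 tumors was sequenced by the authors after target enrichment, and aligned with STAR to GRCh38 per the labels. The deposited values are FPKM per gene, and how mouse reads were treated is not given in the sources used here. Of 20555 entries, 316 of a repeated gene ID were left out and 32 blank cells were read as 0. Genes with an FPKM of 1 or more in at least 4 of 91 kept libraries were tested (13036) on log2(FPKM + 1) with limma 3.58.1 in R 4.3.3 (1 coefficient per group, trend and robust moderation, Benjamini-Hochberg adjustment over all genes at 0.05). The pooled effect was the mean of the 3 dose group means minus vehicle. A fold change on this scale understates that of low genes, and an FPKM of 0 can be a failed estimate. A count test had been planned, but the files hold no counts, so total counts per library are unknown. Scores were compared by exact permutation, and the scripts were tested on simulated data. The members, gene lists and tests were chosen with earlier results of these data known. Genes named were the pathway genes of the lists, the smallest p of each list, the 8 of smallest p in each direction with a mean FPKM of 1 or more, and those stated to be chosen by value. A gene that this rule names is not reported here. Alternatives were another pseudocount (0.1), other filters, quantile normalization, other controls, other sets of libraries, and each tumor left out in turn. Replicates are separate mice.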

Additional observations from a re-analysis of the deposited data

Results flagged for a closer look

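In 2 of 78 groups tested for an outlying tumor, 1 tumor stood apart by Dixon's criterion, which chance meets in about 1 in 20 groups. AMOTL1 was 3.40 FPKM in vehicle tumor 1 and at most 0.457 in the other 4, and MDC1 was 25.8 FPKM in vehicle tumor 3 and at most 10.2 in the other 4.

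The effect of K-975 differed between 24 h and 1 h, by limma with Benjamini-Hochberg adjustment, in genes named after their values were seen. The difference in log2 fold change was -1.21 for ACAT2, -0.82 for SKP2, -0.47 for WWC1, -0.46 for ACTN1, -1.23 for PPME1 and -0.97 for CCN2. It was 1.48 for CARNS1, 0.85 for SSC5D and 0.80 for PIGZ. The effect on the deR score also differed between 24 h and 1 h, by -0.0428 (permutation p = 0.00543). CCN2 was called in 15 of 36 fits that each left out 1 tumor, and with all 94 libraries 0 genes were called. Time and study cannot be told apart in these differences.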

How the results depend on the processing

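The count of 0 genes at 1 h held under all 10 alternatives other than leaving out a tumor, and leaving out 1 tumor gave 0 to 1. Over all genes the 1 h median stayed between -0.01 and 0.0076. With all 94 libraries the count was 1 at 3-6 h, 1 at 24 h, 0 for the difference between 24 h and 1 h, and 0 at 100 mg/kg, and the median of all genes at 24 h shifted to -0.24. With the 1 h study alone the count at 100 mg/kg was 0, without a filter it was 4, and without 1 tumor it was 0 to 2. Quantile normalization gave 22 genes at 3-6 h, 8 higher and 14 lower. Leaving out single tumors, an alternative chosen after seeing the data for 24 h and for 100 mg/kg, gave 206 to 839 genes at 24 h, moving by over 1.5 times without vehicle tumor 1 (214), 2 (226) or 3 (206), 100 mg/kg tumor 3 (343) or 200 mg/kg tumor 2 (839). For the difference between 24 h and 1 h it gave 12 to 139, moving as far without vehicle tumors 1 (12), 2 (66) or 5 (21) of 1 h, 30 mg/kg tumor 5 of 1 h (68), vehicle tumors 1 (13), 2 (21), 3 (15) or 4 (83) of 24 h, 100 mg/kg tumors 3 (25) or 4 (131) of 24 h, and 200 mg/kg tumor 2 of 24 h (139). The cause was not tested. Of 71 named genes, 32 changed sign in some setting, 12 of them on leaving out a tumor, and the largest shift was 1.13, for FAM24B with untreated as control, where its sign turned. No paired analysis was possible because replicate numbers follow accession order and pair no samples.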
